A study of Mus musculus with 4 samples.

Results

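The interferon regulatory factors (IRFs) are a family of DNA-binding proteins, and the mRNA of 8 of their genes, Irf1, Irf2, Irf3, Irf4, Irf5, Irf7, Irf8 and Irf9, was compared here between blood monocytes and blood neutrophils of the mouse. The 8 genes were chosen by symbol, with earlier results of these data known, from the 43346 gene identifiers of the deposited tables. All 8 had a row in every library, and all 8 passed the filter on low counts that 14309 genes passed. The measurements were made in adult C57BL6 mice, in 2 libraries of monocytes and 2 of neutrophils, with no treatment or genetic change named in the labels. Monocytes were sorted as Gr-1+Mac-1+ cells (Gr-1 antibody binds Ly6C and Ly6G, and Mac-1 is the integrin CD11b) from the mononuclear layer of a Ficoll gradient, and neutrophils were taken without a sort from the pellet once red cells had been lysed. RNA depleted of ribosomal RNA was sequenced to between 20549572 and 26076261 expected counts on genes per library, where an expected count is the number of reads that the counting program RSEM assigned to a gene. The labels do not say whether the replicates of a cell type came from separate mice, so p-values measure only the spread between these libraries, which may be technical.

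IRFs bind DNA elements built around GAAA repeats and lie on both sides of the interferon system. Some members are switched on by phosphorylation when Toll-like receptors or cytosolic sensors meet microbial nucleic acid, and then turn on interferon genes. Others carry the signal of the interferon receptors back to the nucleus, or act as lineage factors that shape monocytes, dendritic cells and lymphocytes during blood formation. In blood phagocytes they are known for setting how strongly a cell makes and answers interferon.

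The labelled cell types were checked against their defining markers before the IRF genes were compared. The 9 monocyte markers, among them Csf1r and Adgre4, summed to 5790 and 5900 CPM in the monocyte libraries, where CPM is an expected count scaled by its library's total, and to 400.0 and 385 CPM in the neutrophil libraries, and 8 of them were higher in monocytes. The other, Ly6c2, did not pass and was at 17.0 to 26.3 CPM over the 4 libraries. Ly6C and Ly6G are what the Gr-1 antibody of the monocyte sort binds, and Ly6g was at 0 in both monocyte libraries. The Gr-1+ name of the sorted cells was thus not borne out by the mRNA of Ly6c2 or Ly6g. Spn, Adgre4, Csf1r and Ace were instead the highest of the 9 markers in both monocyte libraries. Which kind of monocyte was sorted was not tested. The 11 neutrophil markers, among them S100a8 and Cxcr2, summed to 7680 and 7950 CPM in the neutrophil libraries against 328 and 358 CPM in the monocyte libraries, and 10 of them were higher in neutrophils. The other, Retnlg, was higher in monocytes, at 224 and 236 CPM against 173 and 197 CPM, and made up most of the sum there. Ly6g and Camp were at 0 in both monocyte libraries, while Csf3r was at 62.7 and 87.3 CPM there. Genes of other cells were not evenly spread. The 11 B cell markers, among them Ms4a1 and Pax5, summed to 5620 and 5470 CPM in the neutrophil libraries and to 756 and 893 CPM in the monocyte libraries. All 11 were higher in neutrophils, and none of them was at 0 in either cell type. The 8 natural killer (NK) cell markers summed to 2500 CPM in both monocyte libraries against 25.8 and 26.6 CPM in the neutrophil libraries. Of 8 T cell markers 6 were higher in neutrophils and 1, Lck, in monocytes, with sums of 83.4 and 92.6 CPM in monocytes and 125 and 128 CPM in neutrophils. Of 5 platelet markers 3 were higher in neutrophils, with sums of 42.6 and 45.9 CPM in monocytes and 72.1 and 79.6 CPM in neutrophils. The study's methods give male mice, and the neutrophil libraries went against this: Xist, the RNA that coats the inactive X chromosome of females, had 5088 and 4878 expected counts there and 0 in both monocyte libraries. The Y-linked gene Ddx3y was counted in every library, at 9814, 9847, 3479 and 2782 expected counts in monocyte 1, monocyte 2, neutrophil 1 and neutrophil 2. Because both neutrophil libraries carried Xist, no comparison could be repeated without it.

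**Figure D1:**
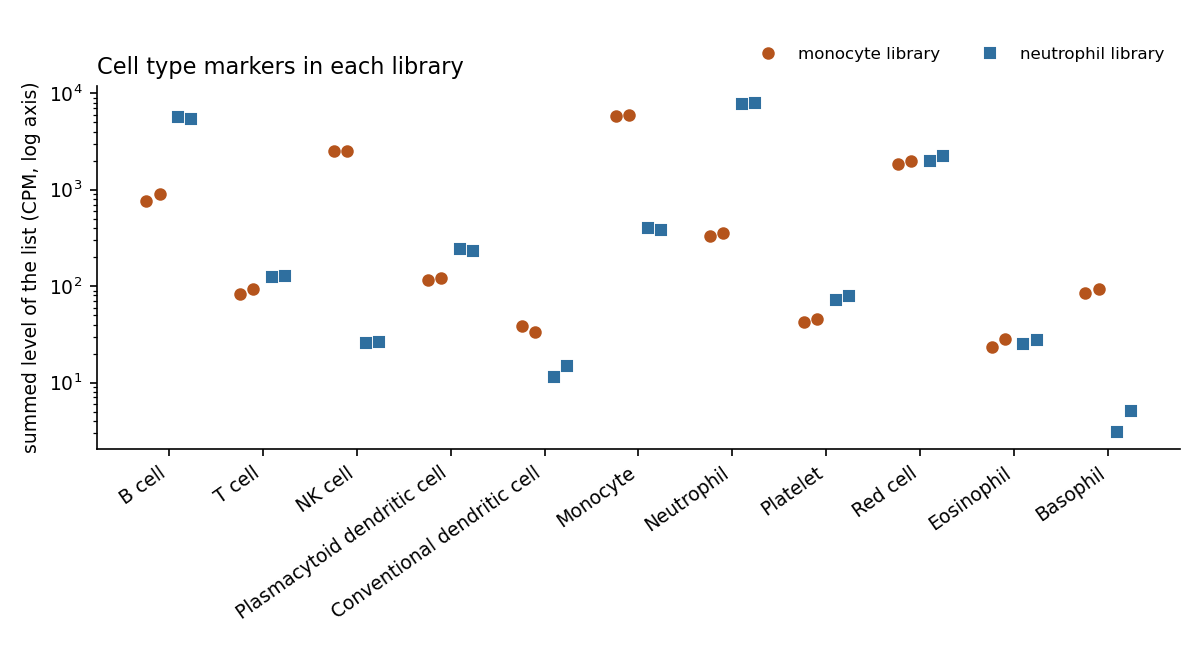
Summed level of each list of cell type markers (CPM, log axis) in the 2 monocyte libraries (circles) and the 2 neutrophil libraries (squares). Monocyte and NK cell lists sit highest in the monocyte libraries, and neutrophil and B cell lists highest in the neutrophil libraries, where the B cell list reaches 5620 CPM.

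Blood monocytes and neutrophils differed in the level of 7 of the 8 IRF mRNAs. Irf8 and Irf5 were higher in monocytes, by 1.97-fold and 1.96-fold, while Irf2, Irf4, Irf7, Irf3 and Irf9 were higher in neutrophils by 1.69-fold to 2.1-fold. Irf1, the member with the highest level per length in all 4 libraries, did not pass the count test. The 7 genes passed an adjusted p of 0.05 in edgeR's quasi-likelihood test, 2 in the direction of monocytes and 5 in the direction of neutrophils. Over all genes tested, 42.6% passed the same test, 20.8% with higher levels in monocytes and 21.8% with higher levels in neutrophils. The IRF differences were small beside others in these libraries: the median absolute log2 fold change was 0.96 for the 7 genes and 1.28 for all genes that passed. No IRF gene passed a test against a change of 2-fold. All 7 genes kept their direction when each library in turn was left out, but such a fit takes its spread largely from the pair that is left. The pairs differed. Over all genes tested, the biological coefficient of variation was 46.2% between the monocyte libraries and 14.7% between the neutrophil libraries. Replicates of the IRF genes themselves were at most 1.27-fold apart in monocytes and 1.13-fold in neutrophils. In bulk libraries, fewer cells that carry a gene and less of its RNA per cell cannot be told apart. The 5 IRF genes higher in neutrophils, and the gene lists higher there, were higher in the libraries with more B cell, T cell and platelet marker RNA, and Irf5 and Irf8 in those with more NK cell and basophil marker RNA. Basophil markers summed to 84.1 and 94.3 CPM in monocytes and 3.04 and 5.05 CPM in neutrophils. The part of these cells in the differences was not tested.

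**Figure D2:**
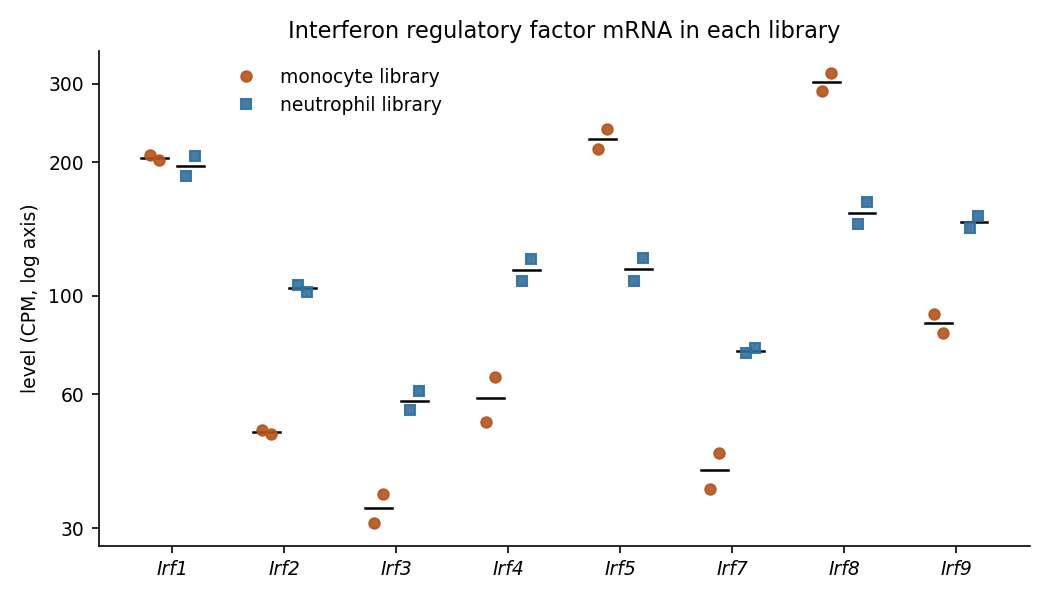
Level of each IRF gene (CPM, log axis) in the 2 monocyte libraries (circles) and the 2 neutrophil libraries (squares), with a line at the mean of each pair. Irf5 and Irf8 sit higher in monocytes, Irf1 lies at 186 to 207 CPM in both cell types, and the other 5 genes sit higher in neutrophils.

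**Figure D3:**
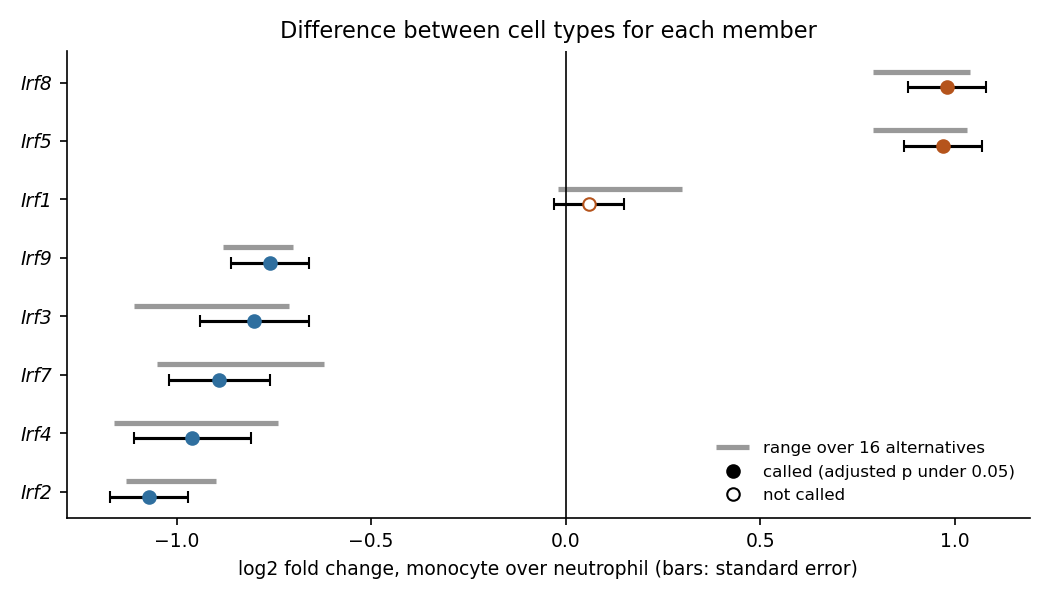
Log2 fold change of each IRF gene, monocyte over neutrophil, with its standard error (black bars) and its range over the 16 other ways of processing (grey bars). Filled points passed an adjusted p of 0.05, and the open point, Irf1 at 0.06, did not.

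Irf8 encodes the family's lineage factor for monocytes and dendritic cells, which pairs with PU.1 on DNA and restrains neutrophil formation in progenitors. It stood at 289 and 317 CPM in the monocyte libraries and at 145 and 163 CPM in the neutrophil libraries. Both monocyte libraries lay above both neutrophil libraries. The log2 fold change, monocyte over neutrophil, was 0.98 ± 0.10 (SE, n = 2 libraries per cell type; edgeR adjusted p = 0.00103). Irf8 lies at chr8:120736358-120756694 on the plus strand of mm10, inside the much longer model Gm20388 on the same strand, which was assigned 302 to 687 expected counts in the libraries while Irf8 was assigned 3142 to 8079. RSEM gave no posterior spread to the count of Irf8 or of any other member.

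Irf4, the closest relative of Irf8 in the family and a factor of activated lymphocytes, plasma cells and dendritic cells, went the other way. Its CPM were 51.9 and 65.7 in monocytes and 108 and 121 in neutrophils, so that the groups did not overlap although the monocyte replicates were 1.27-fold apart, the widest replicate gap among the members. The log2 fold change was -0.96 ± 0.15 (edgeR adjusted p = 0.00433). Within a library, the ratio of Irf8 to Irf4 in FPKM, a level corrected for gene length, was 9.26 and 7.99 in monocytes and 2.7 and 2.36 in neutrophils, 3.41-fold apart. Irf4 is also an mRNA of B cells, whose markers were higher in the neutrophil libraries as given above, and the part of those cells in the Irf4 difference was not tested. Markers of conventional dendritic cells, which use both factors, summed to 38.8 and 33.7 CPM in monocytes and 11.5 and 14.8 CPM in neutrophils, with 0 of 6 genes at 0 in either group. Irf4 spans chr13:30749226-30766976 (plus strand, mm10).

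Irf5 encodes the member that the MyD88 branch of Toll-like receptor signalling activates and that turns on inflammatory cytokine genes. Its levels were 214 and 238 CPM in monocytes and 108 and 122 CPM in neutrophils. The groups were well apart relative to the replicates, which differed at most 1.12-fold within a cell type. The log2 fold change was 0.97 ± 0.10 (edgeR adjusted p = 0.00118). Irf5 and Irf8 stood in nearly the same proportion everywhere, with FPKM ratios of 1.17, 1.11, 1.07 and 1.22 in monocyte 1, monocyte 2, neutrophil 1 and neutrophil 2. Irf5 lies at chr6:29526625-29541871 on the plus strand, and its last 1045 bases overlap the opposite-strand gene Tnpo3, which did not pass the test (log2 fold change -0.11 ± 0.12, edgeR adjusted p = 0.497).

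The promoters of Irf8 and Irf5, the pair higher in monocytes, are shown to compare their letters. The windows are RefSeq promoters on GRCm38.p6, each running from 250 bases before the annotated start to 50 bases after it, at chr8:120736108-120736407 and chr6:29526375-29526674 on the plus strand. Capitals mark matches, on either strand, to the GAS motif TTCNNNGAA, the letters bound by STAT dimers, to the ISRE core, which is GAAA, then 2 bases of any kind, then GAAA again, bound by IRFs and the IRF9 complex, or to the kappaB motif, bound by NF-kappaB.
Irf8: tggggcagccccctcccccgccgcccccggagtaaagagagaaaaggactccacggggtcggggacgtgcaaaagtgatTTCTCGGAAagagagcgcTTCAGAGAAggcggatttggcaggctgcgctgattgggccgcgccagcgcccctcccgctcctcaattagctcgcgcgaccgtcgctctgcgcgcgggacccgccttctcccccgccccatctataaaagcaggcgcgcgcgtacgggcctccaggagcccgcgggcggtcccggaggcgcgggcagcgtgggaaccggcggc
Irf5: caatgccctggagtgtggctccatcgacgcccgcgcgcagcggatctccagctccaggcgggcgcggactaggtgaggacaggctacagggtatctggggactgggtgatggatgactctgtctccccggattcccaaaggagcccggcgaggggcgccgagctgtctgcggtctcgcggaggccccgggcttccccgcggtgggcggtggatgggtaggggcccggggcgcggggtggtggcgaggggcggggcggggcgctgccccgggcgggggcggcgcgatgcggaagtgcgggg
The Irf8 window holds GAS matches at -171 and -153 from the annotated start, and the Irf5 window holds none of the 3 motifs. Among 32851 promoter windows of all genes, 8.3% held a GAS match, 3.44% an ISRE match and 8.46% a kappaB match. GAS and ISRE matches can overlap where they share the letters GAA, but no matches overlapped in the printed windows, and no match is taken here as a binding site.

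Irf1 and Irf2 form an activator and antagonist pair: IRF1, induced by interferon gamma, activates antigen presentation and defence genes, and IRF2 binds many of the same elements and dampens them. Irf1 was at 207 and 202 CPM in monocytes and 186 and 206 CPM in neutrophils. The groups overlapped, with a log2 fold change of 0.06 ± 0.09 (edgeR adjusted p = 0.61) and a 95% interval from -0.15 to 0.28. By FPKM the groups did not overlap, at 172 and 174 in monocytes and 138 and 148 in neutrophils. The effective length that RSEM estimated for Irf1, by which FPKM divides, was 1202 and 1161 bases in monocytes and 1353 and 1379 bases in neutrophils. A fit that took effective length into account gave 0.27 (adjusted p = 0.0848), and leaving out neutrophil 1 turned the direction to -0.02.

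By counts, Irf2 differed 2.1-fold and was the member with the largest difference. By FPKM, Irf3 differed more, 2.15-fold against 2.09-fold for Irf2. The levels of Irf2 were 50.0 and 48.8 CPM in monocytes and 106 and 102 CPM in neutrophils. Replicates were at most 1.04-fold apart, and both neutrophil libraries lay above both monocyte libraries. The log2 fold change was -1.07 ± 0.10 (edgeR adjusted p = 0.000717). The ratio of Irf1 to Irf2 in FPKM was thus 7.93 and 8.3 in monocytes and 3.01 and 3.42 in neutrophils, 2.53-fold apart. Irf1 lies at chr11:53770014-53778374 and Irf2 at chr8:46739732-46847458, both on the plus strand of mm10. The noncoding gene Gm16675 starts 217 bases from Irf2 on the opposite strand and did not pass the test (log2 fold change -0.61, adjusted p = 0.121, and 0.0374 without monocyte 2).

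The first promoter windows of Irf1 and Irf2 hold most of the motif matches of the family, and are shown for that reason, with the same source, length and capitals as above. They lie at chr11:53769764-53770063 and chr8:46739495-46739794, both on the plus strand.
Irf1: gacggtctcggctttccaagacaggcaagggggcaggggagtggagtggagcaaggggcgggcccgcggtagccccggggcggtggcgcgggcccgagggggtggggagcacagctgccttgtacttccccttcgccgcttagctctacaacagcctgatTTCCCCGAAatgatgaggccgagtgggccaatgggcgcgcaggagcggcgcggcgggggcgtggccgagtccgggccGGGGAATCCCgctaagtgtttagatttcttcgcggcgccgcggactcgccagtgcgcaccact
Irf2: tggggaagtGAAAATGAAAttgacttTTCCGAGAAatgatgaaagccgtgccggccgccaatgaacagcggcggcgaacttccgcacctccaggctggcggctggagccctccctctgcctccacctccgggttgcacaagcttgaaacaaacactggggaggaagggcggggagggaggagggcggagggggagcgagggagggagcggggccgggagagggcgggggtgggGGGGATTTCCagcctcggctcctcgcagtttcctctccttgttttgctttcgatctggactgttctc
The Irf1 window has a GAS match at -90 and a kappaB match at -13 that reads on both strands. The Irf2 window has an ISRE match at -241, a GAS match at -224 and a kappaB match at -17. Over the 11 windows of the 8 genes, GAS matches fell in the promoters of 3 genes (Irf1, Irf2 and Irf8), kappaB matches in 2 (Irf1 and Irf2) and ISRE matches in 1 (Irf2). Of the 3 genes with a match, Irf8 was higher in monocytes, Irf2 was higher in neutrophils and Irf1 did not pass. No match in such a window says only that these letters are not in it.

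Irf3 and Irf7 encode the paired factors that TBK1 and related kinases phosphorylate to turn on type I interferon genes, IRF3 being present before infection and IRF7 being raised by interferon itself. Irf3 was at 30.8 and 35.9 CPM in monocytes and 55.3 and 61.0 CPM in neutrophils. The lowest neutrophil value was above the highest monocyte value, and the log2 fold change was -0.80 ± 0.14 (edgeR adjusted p = 0.00695). Irf7 was at 36.8 and 44.2 CPM in monocytes and 74.2 and 76.3 CPM in neutrophils. The groups were again apart, with a log2 fold change of -0.89 ± 0.13 (edgeR adjusted p = 0.00396). The pair stayed close to each other in level per length: the FPKM ratio of Irf7 to Irf3 was 1.33 and 1.05 in monocytes and 0.881 and 0.904 in neutrophils. The direction of that ratio between cell types depended on length, since it was 1.34-fold higher in monocytes by FPKM and 0.936 times as high in monocytes by counts.

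Irf3 lies at chr7:44997648-45002848 on the plus strand, and its first 1065 bases overlap Bcl2l12 on the minus strand, which had 44 to 163 expected counts and was also higher in neutrophils (log2 fold change -1.72 ± 0.43, edgeR adjusted p = 0.0247), a call lost without neutrophil 1 (adjusted p = 0.104) or neutrophil 2 (adjusted p = 0.203). How strand was handled in the counting is not stated in the sources used, so reads in the shared stretch cannot be assigned to one of them with certainty. Irf7 lies at chr7:141262706-141266481 on the minus strand and shares 45 bases with the opposite-strand gene Phrf1, for which the log2 fold change was -0.37 (adjusted p = 0.0522, and 0.00247 without monocyte 2). Irf7 is abundant in plasmacytoid dendritic cells, whose 7 markers summed to 116 and 121 CPM in monocytes and 240 and 230 CPM in neutrophils. That sum came mostly from Tcf4, at 66.2 to 112 CPM, and Ly6d, at 12.4 to 106 CPM, which other blood cells also express. Of 5 tested markers, 3 were higher in neutrophils and 1 in monocytes. Runx2 went toward monocytes, at 34.0 and 35.9 CPM there and 19.2 and 19.3 CPM in neutrophils. The defining marker Siglech was at 1.45 and 0.511 CPM in monocytes and 0.276 and 0.392 CPM in neutrophils, and Klk1 was at 0. The part of these cells in the Irf7 difference was not tested.

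Irf9 encodes the DNA-binding subunit that joins STAT2 in the complex ISGF3 downstream of the type I interferon receptor. It was at 91.2 and 82.3 CPM in monocytes and 142 and 151 CPM in neutrophils. Replicates were within 1.11-fold, and all neutrophil values were above all monocyte values. The log2 fold change was -0.76 ± 0.10 (edgeR adjusted p = 0.00247), the smallest difference by counts among the 7 genes that passed. By FPKM, Irf7 differed less, 1.63-fold against 1.84-fold for Irf9. Stat2, the partner of IRF9, went in the same direction, with a log2 fold change of -1.25 ± 0.18 (edgeR adjusted p = 0.00382). Irf9 lies at chr14:55603571-55610030 on the plus strand, and the end of its upstream neighbour Rnf31 overlaps it by 123 bases on the same strand. Rnf31 was likewise higher in neutrophils (log2 fold change -1.59 ± 0.11, edgeR adjusted p = 0.000327).

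Levels per length gave the makeup of the IRF pool in each library. The FPKM of the 8 genes summed to 538 and 558 in monocytes and to 534 and 551 in neutrophils, so that the totals overlapped. The division of that total did not overlap. Irf1, Irf5 and Irf8 together made up 74.8% and 74.7% of the sum in monocytes and 50.9% and 51.8% in neutrophils. Irf5 alone took 23.0% ± 0.0712 (SD, n = 2) in monocytes and 13.3% ± 0.572 (SD, n = 2) in neutrophils, and Irf8 20.2% ± 0.64 and 11.7% ± 0.579. The share of Irf3 was 5.84% ± 0.634 in monocytes and 12.7% ± 0.252 in neutrophils, that of Irf2 3.89% ± 0.202 and 8.23% ± 0.508, and that of Irf4 2.35% ± 0.319 and 4.62% ± 0.215. With 2 libraries against 2, an exact two-sided permutation test cannot give a p below 0.333, so no test of these shares is given.

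**Figure D4:**
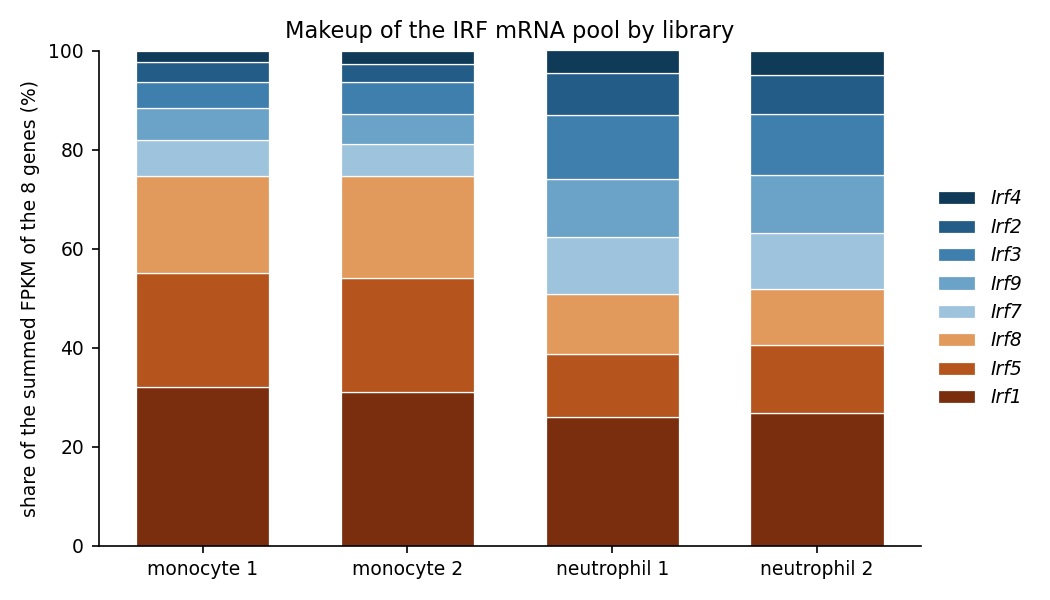
Share of each gene in the summed FPKM of the 8 IRF genes (%), as stacked bars, 1 bar per library. Irf1, Irf5 and Irf8, the 3 lowest blocks, take 74.8% and 74.7% in the monocyte libraries and 50.9% and 51.8% in the neutrophil libraries.

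In monocytes the order by mean FPKM was Irf1 (173), Irf5 (126), Irf8 (111), Irf7 (37.8), Irf9 (34.5), Irf3 (32.1), Irf2 (21.3) and Irf4 (12.9). Neighbours in this order were separated in both libraries except Irf9 and Irf3, which changed places between replicates. A wide step lay between Irf8 and Irf7. In neutrophils the order was Irf1 (143), Irf5 (72.2), Irf3 (68.9), Irf9 (63.7), Irf8 (63.2), Irf7 (61.5), Irf2 (44.6) and Irf4 (25.1). There the middle of the order was flat: Irf5 did not separate from Irf3, nor Irf9 from Irf8, nor Irf8 from Irf7. The highest gene, Irf1, stood 15.0-fold and 12.1-fold above the lowest, Irf4, in the monocyte libraries, and 5.79-fold and 5.63-fold in the neutrophil libraries. The same orders within each library came from the deposited TPM and from the posterior mean FPKM.

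Genes with a pattern like that of a member were sought by the root mean square difference in log2 CPM over the 4 libraries, among 11902 protein-coding genes tested. CPM is not corrected for length, so this likeness is one of counts. The nearest gene to each member was Csk for Irf1 (0.0549), Max for Irf2 (0.0589), Atg2b for Irf3 (0.0688), Mknk2 for Irf4 (0.0634), Ypel5 for Irf5 (0.0569), Nipal3 for Irf7 (0.0357), Anxa6 for Irf8 (0.088) and Hist2h2aa2 for Irf9 (0.0516). With 4 libraries in 2 groups, such likeness says little more than that a gene shares a member's level and its difference.

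The sensors that lead to IRF activation were split between the cell types. For this and each later list, the shares over all genes tested were 20.8% higher in monocytes and 21.8% higher in neutrophils. Of 12 genes, 6 were higher in monocytes, 5 in neutrophils and 1 did not pass, with a median log2 fold change of 0.57 against -0.06 over all genes tested. The exception, Tlr3, had 0, 62, 7 and 23 expected counts in monocyte 1, monocyte 2, neutrophil 1 and neutrophil 2, so its direction rested on monocyte 2. With Tlr3 on the neutrophil side the median of the list would be lower. Tlr7 and Tlr8, the endosomal receptors for single-stranded RNA, were higher in monocytes, by 2.67 ± 0.10 (edgeR adjusted p = 4.07e-05) and 1.58 ± 0.14 (adjusted p = 0.000618) on the log2 scale. Tlr7 was at 195 and 184 CPM in monocytes and 30.4 and 28.9 CPM in neutrophils. Unc93b1, which carries these receptors to the endosome, was higher in neutrophils (-0.47 ± 0.08, adjusted p = 0.00608), and Slc15a4, which IRF5 activation by endosomal receptors requires, was higher in monocytes (0.39 ± 0.10, adjusted p = 0.0246). The cytosolic RNA sensors, named after their values were seen, differed from each other: Ddx58, which encodes RIG-I, was higher in neutrophils (-1.40 ± 0.11, adjusted p = 0.000367) and Ifih1, which encodes MDA5, in monocytes (0.75 ± 0.19, adjusted p = 0.0257). Without neutrophil 1 only 3 sensors passed in each direction, and the calls of Slc15a4 (adjusted p = 0.265) and Ifih1 (adjusted p = 0.0697) were lost. Slc15a4 was also lost without neutrophil 2 (adjusted p = 0.104).

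Of the 17 adaptors and kinases that connect sensors to IRFs, 4 were higher in monocytes, 4 in neutrophils and 9 did not pass, with a median of -0.02. Ticam2, the bridging adaptor of Toll-like receptor 4 for the TRIF branch, was higher in monocytes by 3.60 ± 0.39 on the log2 scale (edgeR adjusted p = 0.00121), with 28.5 and 36.2 CPM against 1.70 and 3.63 CPM. Tirap, the bridging adaptor for the MyD88 branch, was higher in neutrophils (-1.74 ± 0.21, adjusted p = 0.00185). Among the most abundant kinases of the list, Chuk was higher in monocytes (0.67 ± 0.10, adjusted p = 0.0046), and Ikbkb stood at 433 and 403 CPM in monocytes and 370.0 and 355 CPM in neutrophils without passing (adjusted p = 0.097). The kinases that phosphorylate IRF3 and IRF7 did not pass either, Tbk1 at 0.21 ± 0.11 (adjusted p = 0.181) and Ikbke at -0.73 ± 0.29 (adjusted p = 0.0922). Without monocyte 2, however, 7 genes of the list were higher in neutrophils and the calls of Ikbkb (adjusted p = 0.0309), Tbk1 (adjusted p = 0.036) and Ikbke (adjusted p = 0.000151) passed, in the same directions, and Ikbke also passed without monocyte 1 (adjusted p = 0.0371).

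Of 9 corepressors and inhibitors, 1 was higher in monocytes, 2 in neutrophils and 6 did not pass, with a median of -0.25. Tnfaip3, which encodes the ubiquitin editor A20, was at 522 and 686 CPM in monocytes and 95.7 and 94.7 CPM in neutrophils (log2 fold change 2.67 ± 0.15, edgeR adjusted p = 0.000144). Usp18, which shuts off signalling at the type I interferon receptor, was higher in neutrophils (-2.58 ± 0.34, adjusted p = 0.00245). Lyn, a kinase that binds and restrains IRF5, was at 599 and 661 CPM in monocytes and 555 and 520.0 CPM in neutrophils and did not pass (adjusted p = 0.0876), although it did without monocyte 1 (adjusted p = 0.0169). The count higher in neutrophils was 5 without monocyte 1 and 1 without either neutrophil library.

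Of 13 partners that share DNA elements with IRFs or acetylate histones with them, 7 were higher in neutrophils, 1 in monocytes and 5 did not pass. Their median was -0.67, and 21.8% of all genes tested were higher in neutrophils and 20.8% in monocytes. Spib, the B cell and plasmacytoid dendritic cell relative of PU.1 that joins IRF4 and IRF8, was at 12.9 and 20.4 CPM in monocytes and 179 and 185 CPM in neutrophils (-3.45 ± 0.23, edgeR adjusted p = 0.000248). Ikzf3, an Ikaros factor of lymphocytes, was also higher in neutrophils (-1.61 ± 0.13, adjusted p = 0.000411). Both are genes of B cells, whose 11 markers moved the same way with a median of -3.29, and the part of those cells was not tested. Spi1, which encodes PU.1 itself and is named because it was the only partner higher in monocytes, differed little (0.27 ± 0.08, adjusted p = 0.0417). That call was lost without neutrophil 1 (adjusted p = 0.404) and without neutrophil 2 (adjusted p = 0.336), and the FPKM ratio of Irf8 to Spi1 overlapped, at 0.38 and 0.51 in monocytes and 0.428 and 0.409 in neutrophils.

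Among the interferon mRNAs themselves, Ifng alone was at more than 1 CPM in any library. Of 10 ligand genes, 8 had 0 counts in all 4 libraries, among them Ifnb1 and the 4 alpha genes listed, and Ifnk had a level only in monocyte 2, at 0.589 CPM, and it passed only where monocyte 1 was left out. Ifng was at 26.2 and 32.6 CPM in monocytes and 0.23 and 0.196 CPM in neutrophils (log2 fold change 7.07 ± 0.32, edgeR adjusted p = 7.72e-05). Ifng is made by NK and T cells, and the NK cell markers stood at 2500 CPM in both monocyte libraries against 25.8 and 26.6 CPM in the neutrophil libraries, a part that was not tested.

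Of 11 receptors, JAKs and STATs, 2 were higher in monocytes, 5 in neutrophils and 4 did not pass, with a median of -0.39. Ifngr1, the ligand-binding chain of the interferon gamma receptor, was at 935 and 1070 CPM in monocytes and 160.0 and 149 CPM in neutrophils (2.70 ± 0.10, edgeR adjusted p = 4.56e-05). Ifnlr1, the chain specific to interferon lambda, was at 0 and 0.904 CPM in monocytes and 9.29 and 9.56 CPM in neutrophils (-4.37 ± 1.24, adjusted p = 0.0359), a call lost in the DESeq2 Wald test (adjusted p = 0.148). Jak1, the most abundant kinase of the list, did not pass (-0.10 ± 0.08, adjusted p = 0.334). Without neutrophil 1 the count higher in neutrophils was 3.

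Genes known as targets of the IRF9 complex were mostly higher in neutrophils. Of 20 genes, 19 were tested, and 15 of them were higher in neutrophils, 1 in monocytes and 3 did not pass, with a median of -1.97. Over all genes tested, 21.8% were higher in neutrophils, and the list was chosen with earlier results of these data known. Any part of Irf9 or another IRF gene in the level of these targets was not tested. Oasl2, an OAS-like gene of the antiviral response, was at 7.76 and 9.86 CPM in monocytes and 202 CPM in both neutrophil libraries (-4.52 ± 0.15, edgeR adjusted p = 3.42e-05), and Oasl1 differed by -4.29 ± 0.35 (adjusted p = 0.000468). Rsad2, the antiviral enzyme viperin, differed by -1.96 ± 0.14 (adjusted p = 0.00033). Mx1, named because it was the only target higher in monocytes, was at 46.2 and 42.6 CPM there and 14.4 and 15.3 CPM in neutrophils (1.58 ± 0.14, adjusted p = 0.000676).

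Targets of the other members were divided, beside 20.8% of all genes tested higher in monocytes and 21.8% in neutrophils. Of 14 tested targets of IRF1, 4 were higher in monocytes, 6 in neutrophils and 4 did not pass, with a median of -0.31, beside an Irf1 level that did not pass. B2m and Psmb8, of the class I antigen presentation pathway, were higher in monocytes (1.08 ± 0.13, edgeR adjusted p = 0.00177, and 0.62 ± 0.10, adjusted p = 0.00462). The call of Psmb8 was lost in limma on log2(TPM + 1) (adjusted p = 0.0677) and on log2(TPM + 0.1) (adjusted p = 0.0708). Ciita, the master activator of class II genes, was higher in neutrophils (-3.44 ± 0.32, adjusted p = 0.000759), with 27.7 and 13.9 CPM against 221 and 231 CPM. It is expressed by B cells, whose part was not tested. Il15 was also higher in neutrophils (-1.66 ± 0.33, adjusted p = 0.0113).

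Of 6 tested targets of IRF8, 2 were higher in monocytes, none in neutrophils and 4 did not pass, with a median of 0.68. Those higher in monocytes were Klf4, a monocyte lineage factor (3.67 ± 0.14, edgeR adjusted p = 4.34e-05), and Cybb, the membrane subunit of the NADPH oxidase (3.28 ± 0.08, adjusted p = 2.17e-05). Of 3 tested targets of IRF5, the cytokine genes Il6 (7.50 ± 0.35, adjusted p = 8.69e-05) and Tnf (1.74 ± 0.28, adjusted p = 0.00519) were higher in monocytes and Il12a was higher in neutrophils (-4.31 ± 1.06, adjusted p = 0.0229). Il12a had 30 and 1 expected counts in monocytes and 225 and 277 in neutrophils, so the monocyte replicates lay far apart near the floor. Il6 was at 33.8 and 45.1 CPM in monocytes and at 0.276 and 0.147 CPM in neutrophils. Il12b and Il23a had 0 counts in every library. Both lists stand beside 20.8% of all genes tested higher in monocytes and 21.8% in neutrophils.

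**Figure D5:**
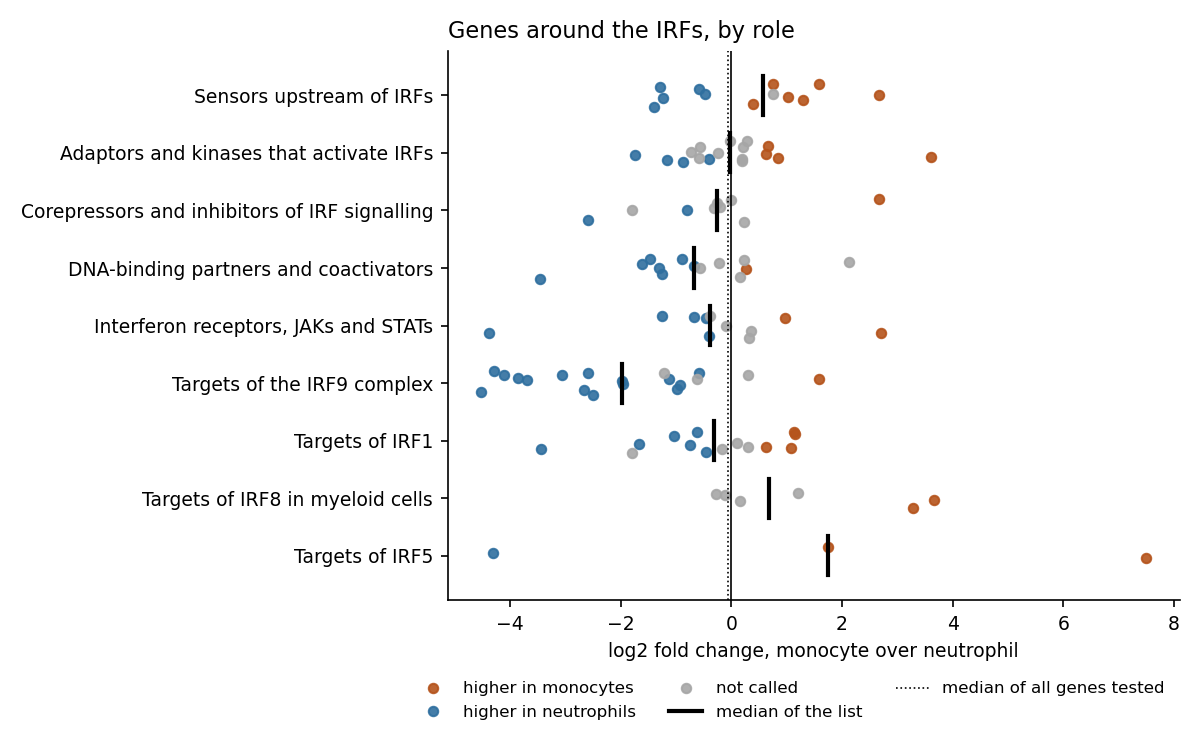
Log2 fold change, monocyte over neutrophil, of each tested gene in the 9 lists with more than 1 tested gene, with the median of each list (black bar) and of all genes tested (dotted line, -0.06). The targets of the IRF9 complex have the lowest median, -1.97, and the 3 targets of IRF5 the highest, 1.74.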

How the data were processed

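Total RNA depleted of ribosomal RNA was measured in 4 libraries of adult mouse blood, 2 of monocytes and 2 of neutrophils, grouped by the labels. Per the labels the authors used bcl2fastq, STAR, RSEM and mm10. They deposited for each gene an expected count (RSEM's estimated read number, from libraries without molecular identifiers), TPM, FPKM and an effective length. The other deposited columns give posterior means of the expected count, TPM and FPKM and their credible limits. Symbols and coordinates came from GENCODE M21 (42462 of 43346 gene identifiers, 98.0%), and promoters from RefSeq. Entries that named no gene held at most 0.000594% of the expected counts and were left out.

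Expected counts were rounded, filtered with filterByExpr, scaled by TMM (factors 0.9936 to 1.006) and tested across all 14309 genes with edgeR 4.0.16 (quasi-likelihood, R 4.3.3, Benjamini-Hochberg over all genes tested), with each SE derived from the F statistic and the fitted log2 fold change. The code was tested on simulated data. Levels are CPM for 1 gene across libraries and deposited FPKM between genes. Alternatives used DESeq2 1.42.0, limma 3.58.1 on log2(TPM + 1) and log2(TPM + 0.1), other scalings and filters, effective length, a test against 2-fold and each library left out. Members and lists were chosen with earlier results of these data known. In each of 10 lists the text names the 2 genes with the highest mean CPM and the 2 called genes with the largest change among those with at least 5 CPM in both libraries of the higher cell type. Neighbours overlap a member or start within 1000 bases of its start. Some genes that this rule or the lists name are not reported here one by one, but stay in the counts and sums of their lists.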

Additional observations from a re-analysis of the deposited data

Results flagged for a closer look

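Entries outside the gene annotation carried a few counts above the limit of 3 that a count of 0 allows. Spike-in entries had 85 expected counts in monocyte replicate 1 and 16 in monocyte replicate 2, and none in the neutrophil libraries. Entries with a bare number as name had 70, 8, 37 and 46 expected counts in monocyte 1, monocyte 2, neutrophil 1 and neutrophil 2. With totals over every entry, all 7 IRF calls were the same. These counts were not used in any comparison of the IRF genes.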

How the results depend on the processing

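Over 16 other settings, the 7 IRF calls kept their direction in all and were lost only in the edgeR test against a 2-fold change, which gave 0 IRF genes toward monocytes and 0 toward neutrophils. Leave-one-out fits assume that a lone library varies like the other group. Over all genes tested, the coefficients of variation (46.2% in monocytes, 14.7% in neutrophils) go against this assumption. Fits without a monocyte library thus largely take the smaller spread, and fits without a neutrophil library the larger. Fold changes moved too: that of Ikbke was -0.73 with all libraries and -1.21 without monocyte 2. The part of each in calls gained or lost was not tested. Left out in turn, the libraries gave log2 fold changes of -1.13 to -1.05 for Irf2, -0.93 to -0.71 for Irf3, -1.16 to -0.82 for Irf4, 0.88 to 1.03 for Irf5, -1.05 to -0.79 for Irf7, 0.88 to 1.04 for Irf8, -0.85 to -0.70 for Irf9 and -0.02 to 0.11 for Irf1. They gave 1810 to 4675 genes higher in neutrophils among all genes, against 3118. For the lists, the counts ranged from 3 to 6 sensors in monocytes and 3 to 6 in neutrophils, 3 to 7 adaptors and kinases in neutrophils, 1 to 2 inhibitors in monocytes and 1 to 5 in neutrophils, 0 to 1 DNA-binding partners in monocytes, 1 to 2 ligands in monocytes, 3 to 6 receptors, JAKs and STATs in neutrophils, 1 to 2 IRF9 complex targets in monocytes and 0 to 1 IRF8 targets in neutrophils. Tlr3 ranged from -7.06, a value fitted against 0 counts without monocyte replicate 2, to 1.88, and Gm20388 from -0.03 to 0.81.

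The test against 2-fold left 934 genes higher in monocytes and 1055 in neutrophils. It left 2 sensors in monocytes and 2 in neutrophils, 1 adaptor or kinase in each, 1 inhibitor in neutrophils, 0 DNA-binding partners in monocytes and 4 in neutrophils, 1 receptor gene in monocytes and 0 in neutrophils, 0 IRF1 targets in monocytes and 1 in neutrophils, and 0 IRF5 targets in neutrophils. Limma gave 1801 genes higher in neutrophils on log2(TPM + 1) and 1688 on log2(TPM + 0.1). On both scales 3 sensors were higher in monocytes, and in neutrophils 1 inhibitor, 2 receptors, JAKs and STATs and 3 IRF1 targets, with 3 sensors in neutrophils on log2(TPM + 0.1). With effective length 1 inhibitor and 3 IRF1 targets were higher in neutrophils. DESeq2 called 2 inhibitors in monocytes and 1 in neutrophils. Upper-quartile factors and the fit with no filter called 0 DNA-binding partners in monocytes. The causes were not tested.

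Of 43 other genes named with a test, 29 kept call and direction in every setting but the 2-fold test. No paired analysis was possible because the replicate numbers follow deposit order. With 2 libraries per cell type, and a neutrophil gate without a sort, cell makeup and cell type cannot be told apart. Xist was counted in both neutrophil libraries and in neither monocyte library, so sex of the source mice and cell type cannot be told apart either.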
